A study of Rattus norvegicus with 6 samples.

Results

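The enzymes that turn squalene epoxide into lanosterol and lanosterol into cholesterol were followed in rat kidney cells treated with streptozotocin (STZ). Their genes are Lss, Cyp51, Tm7sf2, Msmo1, Nsdhl, Hsd17b7, Ebp, Sc5d and Dhcr7, given here in pathway order. They were taken from the count table by symbol, and all 9 were found among its 18930 genes. The group was chosen with its difference between STZ-treated and vehicle-treated cells already known, so its levels, fold changes and calls are a description and are not evidence for the group. All 9 genes were lower in the STZ samples, and they kept between 40.6% and 74.8% of their Control level. The sterol reductase gene Tm7sf2 and the keto-reductase gene Hsd17b7 fell furthest, and the methyl sterol oxidase gene Msmo1 and the isomerase gene Ebp fell least. Of 7 genes for proteins that pass electrons or heme to these enzymes, 4 were higher in the STZ samples, 1 (Cyb5b) was lower and 2 did not pass the test, where 25.9% of all genes tested were higher and 25.1% lower.

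NRK-52E is an established line of rat kidney epithelial cells, with a wild-type genotype in its labels, grown in medium with fetal bovine serum. STZ is a nitrosourea that carries a glucosamine group and alkylates DNA. RNA was sequenced from 3 Control samples, which received vehicle, and from 3 samples exposed to 10 mM STZ for 24 h. One line at a single dose and time cannot stand for the proximal tubule in the animal, and the sources do not say whether the samples of a group were separate cultures, so p-values measure the spread between these samples.

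Cholesterol is built from acetyl-CoA by way of mevalonate and squalene, and the stage described here closes the squalene chain into the sterol rings and then trims them. Lanosterol synthase makes the first ring sterol, after which methyl groups are removed, double bonds are moved or reduced, and cholesterol is reached through lathosterol or desmosterol. The enzymes sit in the membrane of the endoplasmic reticulum, and the oxygen-using ones need electrons from partner proteins. Genes of this pathway are well-known targets of the transcription factor SREBP-2, which is held back when membrane cholesterol is plentiful, and serum lipoproteins are an outside source of that cholesterol. In people, inherited defects of DHCR7, SC5D, EBP and NSDHL cause Smith-Lemli-Opitz syndrome, lathosterolosis, Conradi-Hunermann syndrome and CHILD syndrome.

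Total counts lay between 10430924 and 15191349 per sample, and the lowest total of the STZ samples was above 2 of the 3 Control totals. Levels are given as CPM, the reads of a gene relative to the size of its library, scaled with edgeR's TMM factors, which ran from 0.988 to 1.02. CPM does not correct for transcript length, so levels of different genes are not compared. In bulk RNA, fewer cells of one kind and less RNA per cell cannot be told apart. Of the kidney epithelial markers, 5 of 7 were analysed here, and their summed level was 1700 to 1790 CPM in Control and 2280 to 2290 CPM in STZ, nearly all of it from Krt8 and Tjp1. Krt8 and Tjp1 were called higher by edgeR, with log2 fold changes of 0.48 and 0.15. Cdh1 went the other way, at -0.69 (SE 0.27, adjusted p 0.03 by edgeR), on at most 35 reads in a sample and with overlapping groups. Krt18 had at most 3 reads in a sample. Of the 7 proximal tubule markers, Lrp2, Slc34a1, Slc5a2, Slc2a2 and Havcr1 were nearly absent, at 7 reads or fewer, and Cubn had at most 10. The summed level of the 7 went from 9.89 to 16.7 CPM in Control to 5.73 to 6.83 CPM in STZ. Most of that sum came from Aqp1, with 161, 167 and 113 reads in Control and 81, 66 and 70 in STZ. Aqp1 was called lower, with a log2 fold change of -1.25 (SE 0.16, adjusted p 9.4e-09 by edgeR). Fibroblast markers, 6 of 7 analysed here, summed to 99.6 to 111 CPM in Control and 56.1 to 66.7 CPM in STZ, with Pdgfra, Thy1 and Col1a2 at 4 reads or fewer. The sum came from Col3a1, Col1a1 and Pdgfrb, which were all called lower by edgeR, with log2 fold changes of -1.35, -0.27 and -0.33. Col3a1 (SE 0.08) thus fell about as far as the lowest of the 9 enzymes, Tm7sf2 at -1.31 (SE 0.1). Endothelial markers went from 2.63 to 4.14 CPM to 1.65 to 2.4 CPM and leukocyte markers from 1.45 to 2.26 CPM to 2.34 to 2.83 CPM, with Cdh5 at 0 in 5 samples and Ptprc at 0 in 5. In Control most of the endothelial sum came from Vwf, which was called lower on at most 36 reads. Its log2 fold change was -1.15 (SE 0.3, adjusted p 0.0013 by edgeR). Kdr went the other way, with 0, 2 and 1 reads in Control and 6, 9 and 7 in STZ, and was not tested. The part of these shifts in the sterol gene values was not tested.

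The stretch before the start of each gene was read from RefSeq promoters of the GRCr8 rat assembly, in which all 9 genes were matched, each with 250 bases before and 50 bases from the start on. Positions are counted from the start, and bases before it are negative. The authors mapped reads to another build, so these coordinates do not apply to the count table. A search for the letters CCAAT on both strands, the core bound by NF-Y, which works beside SREBP at many sterol genes, found a match in 7 of 9 promoters. Of all 33469 promoters, 37.5% held it, and of the 9779 promoters of genes that passed the filter, 37.8%. The feature shared most closely was its place and direction. In 6 of 9 promoters the motif stood reversed, read as ATTGG, with its first base between -91 and -82. The same was true of 1.74% of the promoters of genes that passed the filter and of 1.19% of all promoters. That window was set after the positions were seen, and a match is a description, not a bound site. In wider windows the same 6 of 9 promoters held a reversed motif, against 5.17% of the filtered genes' promoters from -100 to -70 and 8.78% from -120 to -60. For the earlier stage of the pathway, from acetyl-CoA to squalene epoxide, 6 promoters were at hand, of which 0 held a reversed motif from -91 to -82 and 2 from -120 to -60. On either strand and at any place, 5 of these 6 promoters held CCAAT, so its presence was not particular to the 9 genes. The 60 bases from -120 to -61 of the 6 promoters are printed to show this alignment, 5′ to 3′ along each gene, with every CCAAT or ATTGG in capitals.
Lss (chr20:12118291-12118350, minus strand): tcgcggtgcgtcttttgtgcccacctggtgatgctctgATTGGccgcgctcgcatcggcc
Tm7sf2 (chr1:212789602-212789661, minus strand): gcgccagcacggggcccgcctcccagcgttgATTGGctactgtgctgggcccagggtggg
Nsdhl (chrX:155817240-155817299, plus strand): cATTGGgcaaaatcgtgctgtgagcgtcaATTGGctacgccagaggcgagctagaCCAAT
Hsd17b7 (chr13:84722815-84722874, minus strand): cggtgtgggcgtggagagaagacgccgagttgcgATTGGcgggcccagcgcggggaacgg
Ebp (chrX:16971342-16971401, plus strand): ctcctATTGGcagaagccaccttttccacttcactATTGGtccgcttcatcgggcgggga
Sc5d (chr8:51538338-51538397, minus strand): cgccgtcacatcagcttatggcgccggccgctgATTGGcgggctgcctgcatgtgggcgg

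The 3 promoters without a reversed motif in that window were those of Cyp51, Msmo1 and Dhcr7. Msmo1 had 3 matches in the forward direction, starting at -173, -109 and -68, and Cyp51 and Dhcr7 had none. Core forms of the sterol regulatory element, the letters bound by SREBP, were also searched on both strands. The form TCACNCCA occurred only in the Msmo1 promoter, starting at -190, and was held by 3.15% of filtered genes' promoters and 3.89% of all. The form TCACCNCA occurred only in the Hsd17b7 promoter, starting at -130, and was held by 3.75% and 4.79%. No match says only that these letters are not in this window. The GC box GGGCGG was found in 8 of 9 promoters, all but that of Nsdhl, against 62.9% of filtered genes' promoters and 33.1% of all, and the 2 matches of Dhcr7 overlap each other. Of the 6 promoters of the earlier stage, 5 held the GC box. The E-box CACGTG, which reads alike on both strands and was counted once, was found for Sc5d only, against 9.45% and 6.42%. The promoters of Msmo1 and Hsd17b7 are printed over 250 bases because they hold the sterol regulatory element cores and belong to the least and one of the most lowered genes. Capitals mark the matches to any of the 5 motifs.
Msmo1 (chr16:29746863-29747112, plus strand): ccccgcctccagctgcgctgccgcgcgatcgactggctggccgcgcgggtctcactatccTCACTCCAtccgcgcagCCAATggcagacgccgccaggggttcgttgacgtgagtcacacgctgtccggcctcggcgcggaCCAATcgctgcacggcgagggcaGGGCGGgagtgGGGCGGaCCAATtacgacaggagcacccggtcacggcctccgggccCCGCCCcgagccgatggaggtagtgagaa
Hsd17b7 (chr13:84722755-84723004, minus strand): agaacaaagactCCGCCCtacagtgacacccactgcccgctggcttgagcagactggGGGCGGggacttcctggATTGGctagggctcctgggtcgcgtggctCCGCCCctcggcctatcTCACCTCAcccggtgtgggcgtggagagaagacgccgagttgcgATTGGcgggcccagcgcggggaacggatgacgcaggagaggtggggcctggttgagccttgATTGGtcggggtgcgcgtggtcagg

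**Figure D1:**
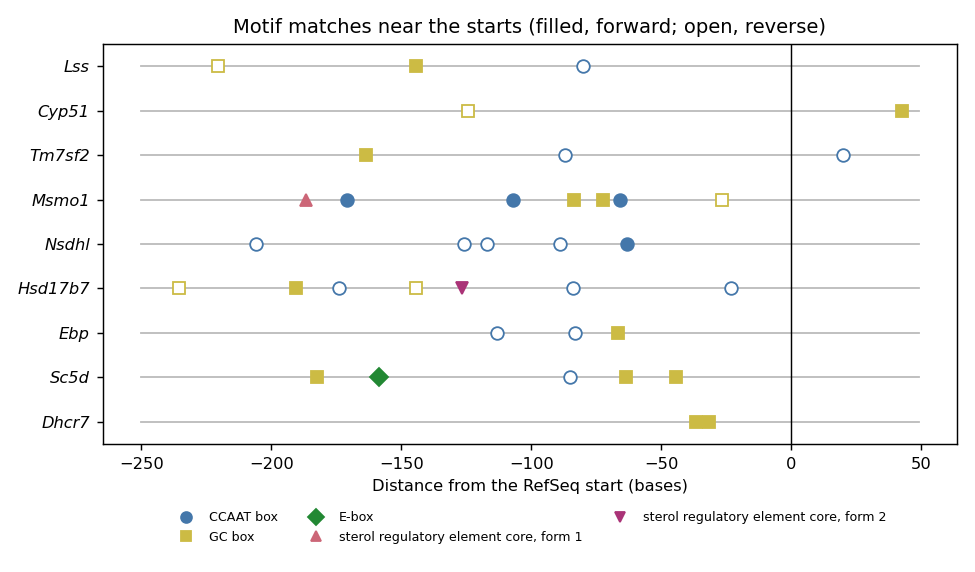
Positions of motif matches in the promoters of the 9 genes, drawn as distance in bases from the RefSeq start (vertical line). Filled symbols lie in the gene's direction and open symbols are reversed, and the open circles line up between -91 and -82 for Lss, Tm7sf2, Nsdhl, Hsd17b7, Ebp and Sc5d.

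All 9 genes passed the filter on low counts, with 94 to 4975 reads in a sample. In the quasi-likelihood fit of edgeR, adjusted after Benjamini and Hochberg over 11870 genes, all 9 were called lower, where 25.1% of all genes tested were called lower. Of them, 3 also had a log2 fold change under -1, which 1.11% of all genes reached. In all 9 every STZ sample was below every Control sample, as in 27.7% of all genes. Since this contrast chose the genes, these counts only describe them. The median log2 fold change was -0.79, with a range from -1.31 to -0.42, where the median of all genes tested was -0.01.

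Lss encodes lanosterol synthase, the cyclase that opens this stage. It measured 125, 126 and 131 CPM in Control and 61.1, 63.1 and 58.6 CPM in STZ. The groups were far apart, and the means were 127 ± 2.96 and 60.9 ± 2.26 CPM (SD, n = 3). Its log2 fold change was -1.06 (SE 0.05), which left 47.9% of the Control level.

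Cyp51, a cytochrome P450 and the target of azole drugs in fungi, removes a methyl group from lanosterol. Its levels were 368, 381 and 388 CPM in Control and 238, 242 and 226 CPM in STZ. The lowest Control value stood well above the highest STZ value, and the log2 fold change was -0.69 (SE 0.04). Counts of Cyp51 and of Nsdhl carry some uncertainty, because the rat annotation lists a pseudogene copy of each (Cyp51a1-ps1 and Nsdhl-ps1) that can share reads with it. None of the 9 genes overlaps another annotated gene.

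The product of Cyp51 has a double bond that is reduced by the product of Tm7sf2, a sterol reductase. Tm7sf2 measured 29, 33.8 and 29.4 CPM in Control and 13.9, 13.4 and 10.1 CPM in STZ. STZ replicate 3 lay apart below the other STZ samples, and the spread in STZ, a coefficient of variation of 16.5%, was the widest of the 9 genes. Counting error alone gives 7.76% at this depth. The log2 fold change, -1.31 (SE 0.10), was the lowest of the group, and the gap between the groups, 51.9% of the lowest Control value, the widest.

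The methyl groups at the next carbon are removed by Msmo1, Nsdhl and Hsd17b7 acting in turn. Msmo1, the oxidase, measured 246, 276 and 262 CPM in Control and 206, 187 and 193 CPM in STZ. Its groups came closest of the 9, with a gap of 16.1% of the lowest Control value, and its log2 fold change was -0.42 (SE 0.04). Nsdhl, the dehydrogenase that also removes the carboxyl group, measured 116, 112 and 110 CPM in Control and 64.9, 67.3 and 63.5 CPM in STZ. Both groups were tight, with coefficients of variation of 2.44% and 2.95%, and the log2 fold change was -0.79 (SE 0.05). Hsd17b7, the reductase that restores the hydroxyl group, measured 17.4, 21.3 and 19.2 CPM in Control and 8.79, 8.16 and 6.93 CPM in STZ. It had the fewest reads of the group, 185, 235 and 247 in Control and 121, 94 and 104 in STZ, and its highest STZ value, 8.79 CPM, was far below its lowest Control value, 17.4 CPM. Its log2 fold change was -1.29 (SE 0.11).

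These 3 enzymes of one reaction sequence thus fell by unequal amounts. Each read of Hsd17b7 was matched by 14.1, 12.9 and 13.6 reads of Msmo1 in Control and by 23.5, 22.9 and 27.9 in STZ. The ratio was higher in every STZ sample than in any Control sample, and library scaling does not enter it. It restates the unequal fold changes of Msmo1 and Hsd17b7 and is not further evidence. The scaffold protein Erg28, which holds these enzymes together in the membrane, had 78.9, 89.1 and 85 CPM in Control and 55.8, 55 and 51.6 CPM in STZ. Its log2 fold change of -0.64 (SE 0.05, adjusted p 2.8e-13 by edgeR) lay between those of Msmo1 and Hsd17b7.

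The last members move and reduce the double bonds of the ring. Ebp, the isomerase, is also known as a binding protein of emopamil and measured 50.2, 53.9 and 46.7 CPM in Control and 36.5, 35 and 38.7 CPM in STZ. The groups did not overlap, and the log2 fold change was -0.44 (SE 0.06). Sc5d, the lathosterol desaturase, measured 148, 161 and 162 CPM in Control and 107, 105 and 106 CPM in STZ. Its STZ samples were nearly equal, with a coefficient of variation of 0.948%, and the log2 fold change was -0.57 (SE 0.04). Dhcr7 acts on the sterol that sunlight turns into vitamin D in skin and reduces it to cholesterol. It measured 111, 115 and 121 CPM in Control and 65.7, 66 and 60 CPM in STZ. The log2 fold change was -0.86 (SE 0.05), and 55.3% of the Control level was left.

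**Figure D2:**
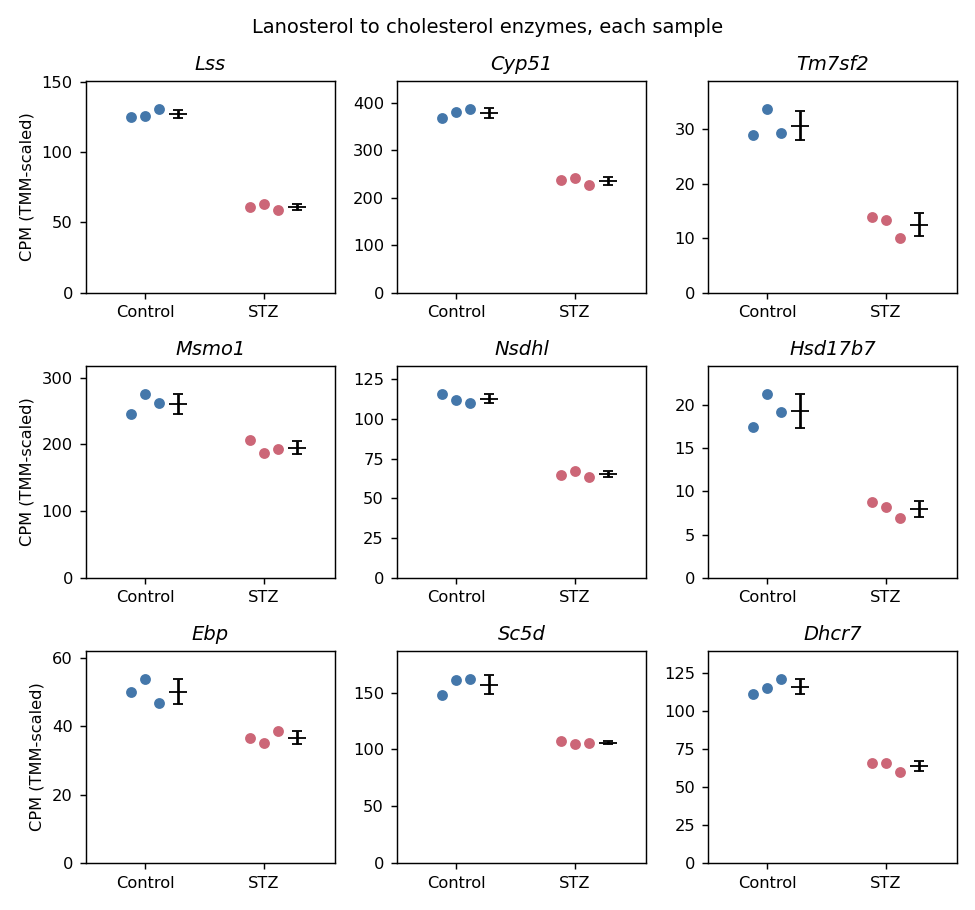
TMM-scaled CPM of each of the 9 genes in every Control (blue) and STZ (red) sample, with group mean and SD (n = 3) to the right of the points. Every panel starts at 0, and in each panel the 3 STZ points lie below the 3 Control points, closest in Msmo1 and farthest in Tm7sf2 relative to the Control level.

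Grouped by reaction, both double-bond reductases were lower in log2 fold change than the 3 oxygen-using enzymes, as a description of few genes. The oxygen-using enzymes Cyp51, Sc5d and Msmo1 had -0.69, -0.57 and -0.42, and the double-bond reductases Tm7sf2 and Dhcr7 had -1.31 and -0.86. The values did not follow the order of the pathway, since Tm7sf2 and Hsd17b7, at -1.31 and -1.29, stood on either side of Msmo1 at -0.42. Some members next to each other in size were within their standard errors. Tm7sf2 and Hsd17b7 differed by less than the SE of either, as did Ebp and Msmo1, and Dhcr7 and Nsdhl differed by little more than 1 SE.

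Added up, the 9 genes had 1210, 1280 and 1268 CPM in Control and 802.4, 786.9 and 762.9 CPM in STZ. The sums of the groups were far apart, and the STZ mean was 62.6% of the Control mean. Cyp51 held 30.2% of the reads of the 9 genes in Control and 30% in STZ. Msmo1 went from 20.8% to 24.9% and Sc5d from 12.5% to 13.5%, whereas Lss went from 10.2% to 7.77%, Tm7sf2 from 2.45% to 1.59% and Hsd17b7 from 1.54% to 1.01%. Replicates were also ranked within each group. Control replicate 1 gave the lowest Control value in 7 of 9 genes, and STZ replicate 3 the lowest STZ value in 6 of 9. The highest Control value came from replicates 2 and 3 in 4 genes each, and the highest STZ value from replicates 1 and 2 in 4 genes each. The same order was not counted over all genes, so whether it is a trait of these 9 is not known.

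Relatives of the 9 enzymes were read as well. Faxdc2, a relative of the sterol oxidases, had a log2 fold change of -0.03 (SE 0.31, adjusted p 0.95 by edgeR) on 13 to 23 reads per sample, too few to show a moderate difference. Ebpl, a relative of Ebp, had at most 7 reads in a sample and was not tested, and Lbr, which encodes another reductase acting beside Tm7sf2, was not analysed here.

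The partners that supply electrons or heme to these enzymes moved otherwise. Of Por, Cyb5a, Cyb5b, Cyb5r1, Cyb5r3, Pgrmc1 and Pgrmc2, 4 of 7 rose and 1 fell by edgeR's test, where 25.9% of all genes rose. None of the 7 had a log2 fold change over 1, which 2.26% of all genes reached, and the median was 0.15. In 4 of 7 every STZ sample was above every Control sample, as in 28.6% of all genes. Pgrmc1, a heme protein that binds P450 enzymes such as Cyp51, measured 197, 198 and 215 CPM in Control and 271, 267 and 282 CPM in STZ. All its STZ values were higher, with a log2 fold change of 0.42 (SE 0.04, adjusted p 9.9e-12 by edgeR). Por, the reductase that feeds Cyp51 with electrons, had 0.28 (SE 0.05, adjusted p 1.4e-06 by edgeR), and the reductases Cyb5r1 and Cyb5r3 had 0.59 (SE 0.07, adjusted p 9.3e-10) and 0.15 (SE 0.04, adjusted p 0.0011). Cyb5b, a cytochrome b5, fell by 0.29 on the log2 scale (SE 0.04, adjusted p 4.3e-07 by edgeR). Cyb5a and Pgrmc2, at -0.04 and 0, did not pass the test.

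Cyp51 and its partners therefore stood in another proportion in the treated cells. Each read of Por was matched by 2.17, 2.27 and 2.08 reads of Cyp51 in Control and by 1.16, 1.06 and 1.1 in STZ. Each read of Pgrmc1 was matched by 1.86, 1.93 and 1.8 reads of Cyp51 in Control and by 0.879, 0.908 and 0.801 in STZ. Neither ratio depends on library scaling. Neither could overlap between the groups, since every STZ level was lower for Cyp51 and higher for Por and Pgrmc1. The ratios restate those values and are not further evidence.

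**Figure D3:**
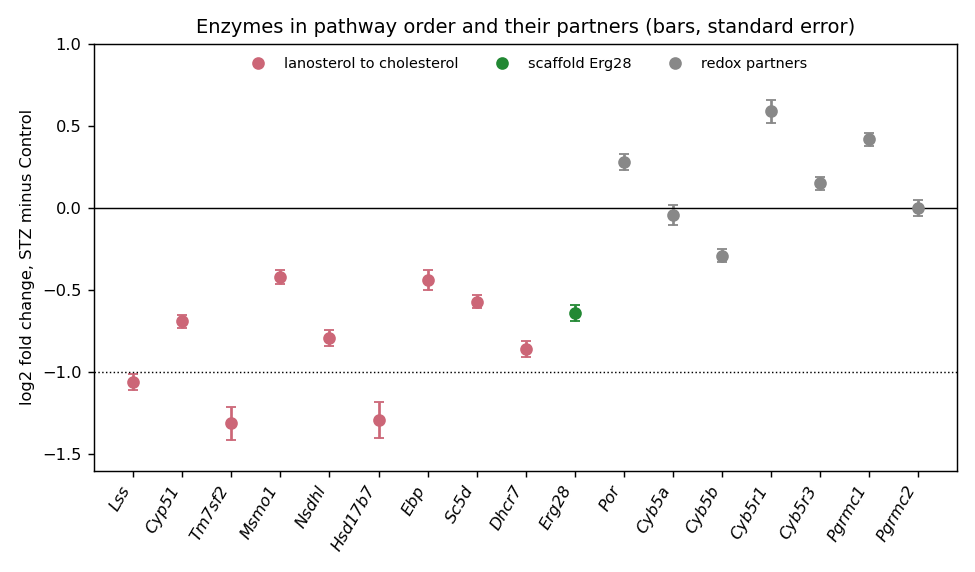
Log2 fold change, STZ minus Control, of the 9 enzymes in pathway order, of the scaffold gene Erg28 and of the 7 redox partners, with bars for the standard error of the edgeR fit and a dotted line at -1. The enzymes and Erg28 lie between -1.31 and -0.42, and the partners between -0.29 and 0.59.

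The earlier stage, from acetyl-CoA to squalene epoxide, was listed with 10 genes, of which Fdps was not analysed here. All 9 tested fell by edgeR's test, where 25.1% of all genes tested fell. The median log2 fold change was -0.83, with a range from -1.64 to -0.44, where the median of all genes tested was -0.01. Of the 9, 4 also had a log2 fold change under -1, which 1.11% of all genes reached. The list was written with these results known, so its count is not independent evidence. The genes under -1 were Mvd at -1.64 (SE 0.05, adjusted p 3.1e-28), Acat2 at -1.05 (SE 0.05, adjusted p 8.7e-23), Mvk at -1.04 (SE 0.06, adjusted p 3.3e-19) and Hmgcs1 at -1.03 (SE 0.04, adjusted p 1.1e-25), each by edgeR. Mvd decarboxylates a mevalonate intermediate, Acat2 joins acetyl-CoA units, Mvk phosphorylates mevalonate and Hmgcs1 makes HMG-CoA. The range of the later stage, -1.31 to -0.42, lies almost wholly within this one.

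Among all genes that passed the filter, those nearest to the mean profile of the 9 were found by the root mean square difference of log2 CPM, with each gene centred on its mean over the 6 samples. Among the 5 nearest were Grb10, an adaptor of growth factor receptors, with a difference of 0.0357, Pank3, a kinase of coenzyme A synthesis (0.0365), the histone variant gene H2az1 (0.049) and the sterol carrier gene Stard4 (0.0524). Their log2 fold changes were -0.84, -0.83, -0.80 and -0.80. Of the members themselves Dhcr7 (0.0417) and Nsdhl (0.0582) were nearest to their own mean, and Tm7sf2 (0.266) and Hsd17b7 (0.237) farthest. Over 6 samples in 2 groups such likeness mostly says that the fold changes are alike.

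Genes that regulate sterol synthesis and uptake were mixed. Of 11 tested of 12, 6 fell and 2 rose by edgeR's test, where 25.1% of all genes fell and 25.9% rose, with a median log2 fold change of -0.18. The number that fell was 5 without STZ replicate 1 or STZ replicate 3, and also 5 by DESeq2 and with counts thinned to the smallest total. Npc2, which hands cholesterol out of the lysosome, had the smallest p of those that rose, at 0.59 (SE 0.04, adjusted p 4.1e-17 by edgeR).

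Lists of the other branches around cholesterol are short, and their counts stand against the same shares of all genes, 25.1% lower and 25.9% higher. Among sterol-sensing and efflux genes, 4 of 7 were tested, of which 2 fell and 1 rose, with a median log2 fold change of -0.17. Without Control replicate 2 or without STZ replicate 3, 1 fell instead of 2. The cholesterol exporter Abca1 rose by 0.68 on the log2 scale (SE 0.09, adjusted p 2.1e-08 by edgeR), and the phospholipid enzyme Lpcat3 fell by 0.34 (SE 0.04, adjusted p 1.1e-08). Among genes of cholesterol esterification and oxidation, 4 of 7 were tested, of which 3 rose and 1 fell, with a median of 0.29. Soat1, which esterifies cholesterol for storage, rose by 0.33 (SE 0.04, adjusted p 2.3e-09 by edgeR), and Lipa, which frees cholesterol in the lysosome, fell by 0.36 (SE 0.05, adjusted p 1.7e-08). In the isoprenoid branch, which leaves the pathway before squalene, 8 of 9 were tested and 6 did not pass the test, with a median of -0.01. Dhdds, which starts dolichol synthesis, fell by 0.37 on the log2 scale (SE 0.04, adjusted p 1.4e-09 by edgeR). Pggt1b, a subunit of a prenyl transferase, rose by 0.23 (SE 0.08, adjusted p 0.012 by edgeR), but its groups overlapped and it no longer passed the test without any one of Control replicates 1 and 2 and STZ replicates 1 and 3, nor by DESeq2. All these lists were written with earlier results of these data known.

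**Figure D4:**
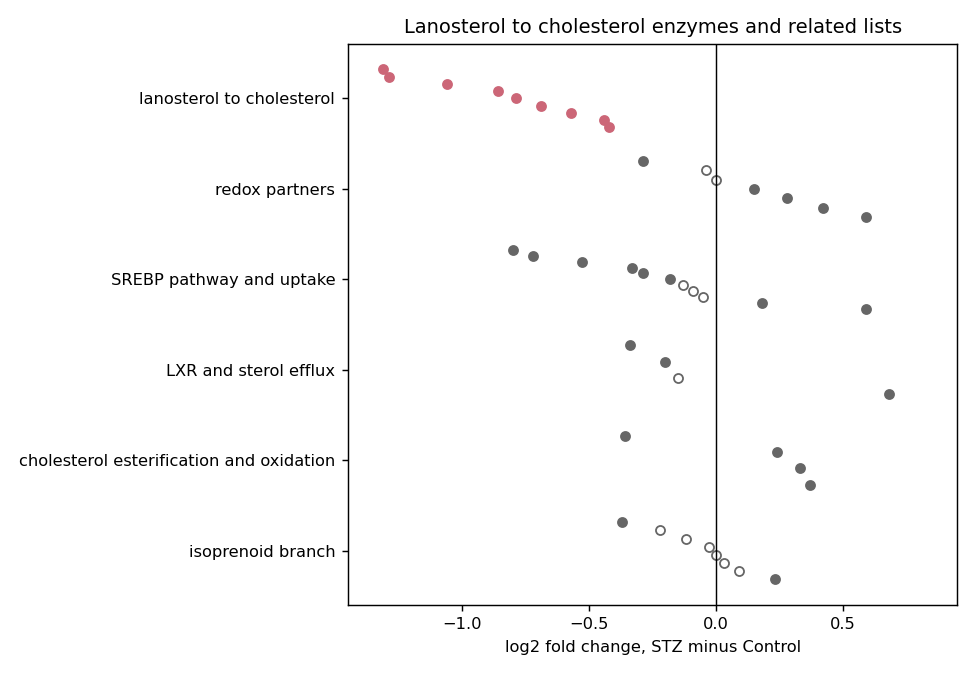
Log2 fold change, STZ minus Control, of each tested gene by list, with the 9 lanosterol to cholesterol genes in red and filled points for genes called at an adjusted p-value under 0.05 (open points were not called). The 9 enzymes all lie between -1.31 and -0.42, whereas 4 of the 7 redox partners lie above 0 and most isoprenoid genes lie near it.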

How the data were processed

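The authors mapped single-end reads of stranded mRNA libraries to Rnor6 with STAR 2.7.10a, counted uniquely mapped reads with featureCounts and deposited raw counts, 1 column for each of 6 samples. The strand setting is not given in the sources used here. Columns were matched to groups by label. Of 18930 rows, 422 share a name with another row, none of them a gene named here. Counts were scaled (TMM), filtered (filterByExpr, 11870 genes) and tested with edgeR 4.0.16 in R 4.3.3. Calls required a Benjamini-Hochberg adjusted p-value under 0.05. With 3 against 3 samples the smallest exact permutation p is 0.1, so none is given. The members and lists were chosen with earlier results of these data known. Beside the members, genes named were all genes of the same stage, those past the threshold with an absolute log2 fold change over 1, the smallest p in each direction of each list, and the 5 nearest profiles. Values of some single genes that the rule picks are not reported here. The other redox partners and the marker genes were named after their values were seen. On simulated counts for 11870 genes, 192 of 200 changed genes were called, and 11 unchanged ones. Alternatives were other filters, scalings and tests (DESeq2 1.42.0, limma-voom 3.58.1), thinning, a replicate block and leaving out each sample. Figures were drawn with matplotlib 3.10.9.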

Additional observations from a re-analysis of the deposited data

How the results depend on the processing

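The 9 enzymes were called lower, and 3 of them had a log2 fold change under -1, under each of the 15 alternatives, and their median log2 fold change stayed between -0.82 (library size only) and -0.76 (counts thinned to the smallest total). The deviations of same-numbered samples correlated at 0.0475, -0.0398 and 0.0746 over 11870 genes. These values show no strong shared effect of the replicate number, but they cannot tell whether the samples were paired. With the replicate block the median was -0.79, and 6199 genes were called instead of 6046. DESeq2 called 5049. Of the isoprenoid branch 2 genes were called, but 1 by DESeq2, and 1 to 3 with single samples left out. Faxdc2, which was not called, ranged from -0.2 to 0.11 with single samples left out. Fold changes of the 9 enzymes moved most in Tm7sf2, from -1.4 to -1.17, and Hsd17b7, from -1.37 to -1.19, the genes with the fewest reads. The causes were not tested. Depth limits Faxdc2 and Ebpl most.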
